A study of Mus musculus with 10 samples.

Results

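Mesenchymal cells make fibrillar and pericellular collagens, matrix binding proteins and the transcription factors that set the mesenchymal state. Described here across sorted mouse mammary cells are 9 genes grouped as mesenchymal, among them Abca8a, Fgl2 and Gsn, which are of other kinds. The genes were Col3a1, Col5a2, Col6a3, Dpt, Abca8a, Zeb2, Fgl2, Gsn and Prrx1. Each was taken from the probe sets that carried its symbol alone. All 9 were found, on 11 of 3663 probe sets, and they were 9 of the 2560 named genes in the table. They had been proposed as genes higher in Thy-1+CD24medCD49fhigh than in Thy-1-CD24medCD49fhigh cells with the values of these same arrays known. The difference between these 2 populations is therefore a description here and carries no test. The data went against that proposal in part, since Col5a2 and Prrx1 overlapped between the 2 populations. Col6a3 was higher in Thy-1+ than in Thy-1- cells but highest in luminal cells.

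RNA was measured on Affymetrix mouse expression arrays in 5 populations sorted from the mammary glands of virgin FVB females aged 6 to 8 weeks, with 2 arrays for each population. The populations were Thy-1+CD24medCD49fhigh, which the series names stem cells, Thy-1-CD24medCD49fhigh, named progenitor cells, CD24medCD49fmed, named myoepithelial cells, CD24highCD49fmed, named luminal progenitor cells, and CD24medCD49f-/low, named differentiated luminal cells. The text of the study names its myoepithelial gate CD24lowCD49fmed, and no source says whether that is the CD24medCD49fmed gate of the labels. The first 3 are called basal and the last 2 luminal below. The labels name no transgene and no treatment for any of them. Glands were digested enzymatically with collagenase, hyaluronidase, trypsin and dispase. Cells that stained for the blood and endothelial proteins CD45, CD31 and Ter119 were removed, and each population was sorted in 2 rounds. The methods also list CD140α, the product of the fibroblast gene Pdgfra, among the stains for excluded cells, whereas the sample labels do not. CD24 and CD49f (integrin α6) separate luminal from basal epithelium, and Thy-1, the product of Thy1, is a glycoprotein that many fibroblasts also carry.

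Values are centred log2 intensities. The authors set the mean of each probe set over the 10 arrays to 0, so a value is a distance from that mean, a difference of 1 is a 2-fold change, and neither abundance nor a level near background can be read. Probe sets had been kept for a range of 4-fold or more over the arrays, so each of the 9 genes had to differ between some arrays. In bulk samples, fewer cells of a type and less RNA per cell cannot be told apart. No source says whether the 2 arrays of a group stem from different animals, and a p-value here speaks only of the spread between the arrays at hand.

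The proteins fall into a few roles. Col3a1 and Col5a2 encode chains of the fibrillar collagens III and V, which form mixed fibrils with collagen I in loose connective tissue. Col6a3 encodes a chain of collagen VI, the beaded filament that lies around cells. Dpt encodes dermatopontin, a small matrix protein that binds decorin and collagen fibrils. Zeb2 is a zinc finger repressor of E-cadherin and other epithelial genes, and Prrx1 is a homeodomain factor of limb and craniofacial mesenchyme. Gsn encodes gelsolin, which severs and caps actin filaments. Fgl2 encodes a fibrinogen-like protein with a prothrombinase activity in its membrane form, and Abca8a encodes a membrane transporter of the ATP-binding cassette A group. In the mammary gland such genes are known mainly from the stroma that surrounds the ducts, while the basal epithelium itself makes part of the matrix on which it rests.

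The promoters of Col3a1, Dpt and Abca8a are shown because these genes had high values together in Thy-1+CD24medCD49fhigh cells and because each holds at least 1 of the 3 motifs searched. Sequences are from RefSeq on GRCm38.p6, from 250 bases before to 50 bases after the annotated start, and they run 5′ to 3′ on the strand of the gene. Capitals mark the motifs. These were CACCTG, the E-box that Zeb2 protein is known to bind, TAATTA, a core that many homeodomain proteins bind, and TATAAA, the TATA box, each on both strands.
Col3a1, chr1:45311288-45311587, plus strand: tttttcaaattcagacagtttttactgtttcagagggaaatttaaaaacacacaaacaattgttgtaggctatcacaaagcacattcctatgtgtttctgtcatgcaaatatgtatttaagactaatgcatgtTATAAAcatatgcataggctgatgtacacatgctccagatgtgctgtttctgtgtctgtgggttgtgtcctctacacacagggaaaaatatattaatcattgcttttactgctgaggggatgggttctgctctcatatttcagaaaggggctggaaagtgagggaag
Dpt, chr1:164796413-164796712, plus strand: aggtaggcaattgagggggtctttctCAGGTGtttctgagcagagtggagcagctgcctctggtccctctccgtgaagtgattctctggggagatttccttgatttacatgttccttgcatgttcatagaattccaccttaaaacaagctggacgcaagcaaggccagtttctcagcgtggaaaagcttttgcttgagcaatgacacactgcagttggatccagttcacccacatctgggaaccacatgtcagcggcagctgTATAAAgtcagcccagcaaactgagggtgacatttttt
Abca8a, chr11:110095888-110096187, minus strand: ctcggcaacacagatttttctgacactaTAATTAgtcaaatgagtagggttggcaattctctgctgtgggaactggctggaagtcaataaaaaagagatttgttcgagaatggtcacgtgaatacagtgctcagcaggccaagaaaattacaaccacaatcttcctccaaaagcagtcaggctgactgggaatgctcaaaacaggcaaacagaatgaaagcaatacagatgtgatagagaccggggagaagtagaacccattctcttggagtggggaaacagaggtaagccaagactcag
Of the 9 genes, 8 had windows in this annotation, 13 windows in all, and no window was at hand for Col5a2. CACCTG, or CAGGTG on the other strand, lay in windows of 2 of these 8 genes, Dpt and Gsn, and in 20.2% of all 32851 windows. TAATTA lay in windows of Abca8a and Prrx1 and in 5.29% of all windows. TATAAA, or TTTATA on the other strand, lay in windows of Col3a1 and Dpt and in 13.6% of all windows, but the match in Col3a1 stood at position -117 and the match in Dpt at position 12, counted from the start. No motifs overlapped. The windows of Col6a3, Zeb2 and Fgl2 held none of the 3. A match is a description of the letters only.

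The sorting genes were examined first, except Cd24a, which encodes CD24 and was not among the named genes analysed. Thy1 had 2.59 and 0.58 in Thy-1+CD24medCD49fhigh cells, against 0.23 and -0.54 in Thy-1-CD24medCD49fhigh cells, so both Thy-1+ arrays lay above both Thy-1- arrays, while CD24medCD49fmed replicate 2, at 0.67, lay above the lower Thy-1+ array. Itga6, which encodes CD49f, and the basal genes Krt14 and Acta2 were above 0 in all 6 basal arrays and below 0 in all 4 luminal arrays. Within the basal cells Itga6 RNA did not follow the CD49f gates. It had 1.15 and 1.36 in CD24medCD49fmed cells, against 1.17 and 0.43 in Thy-1+CD24medCD49fhigh cells and 0.64 and 0.65 in Thy-1-CD24medCD49fhigh cells. The luminal genes were less clear. Krt18 had -1.02 and 0.60 in Thy-1+CD24medCD49fhigh cells, -1.14 and -0.31 in Thy-1-CD24medCD49fhigh cells, -1.92 and 0.33 in CD24medCD49fmed cells, 0.79 and 1.14 in CD24highCD49fmed cells and 0.45 and 1.08 in CD24medCD49f-/low cells, so 1 Thy-1+ array lay above a luminal array. Elf5 was 0.20 in Thy-1- replicate 2, below 0 in the other 5 basal arrays and 0.64 to 1.84 in the luminal arrays. Over all 2932 features tested (named genes and unnamed probe sets), the Pearson correlation of the 2 Thy-1+CD24medCD49fhigh arrays was 0.430, while that of Thy-1+ replicate 1 with CD24medCD49fmed replicate 2 was 0.821, and the 2 CD24medCD49f-/low arrays had one of 0.291 with each other. These are descriptions over features, which are not independent. For this reason each Thy-1+ minus Thy-1- difference is also given with single arrays left out.

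**Figure D1:**
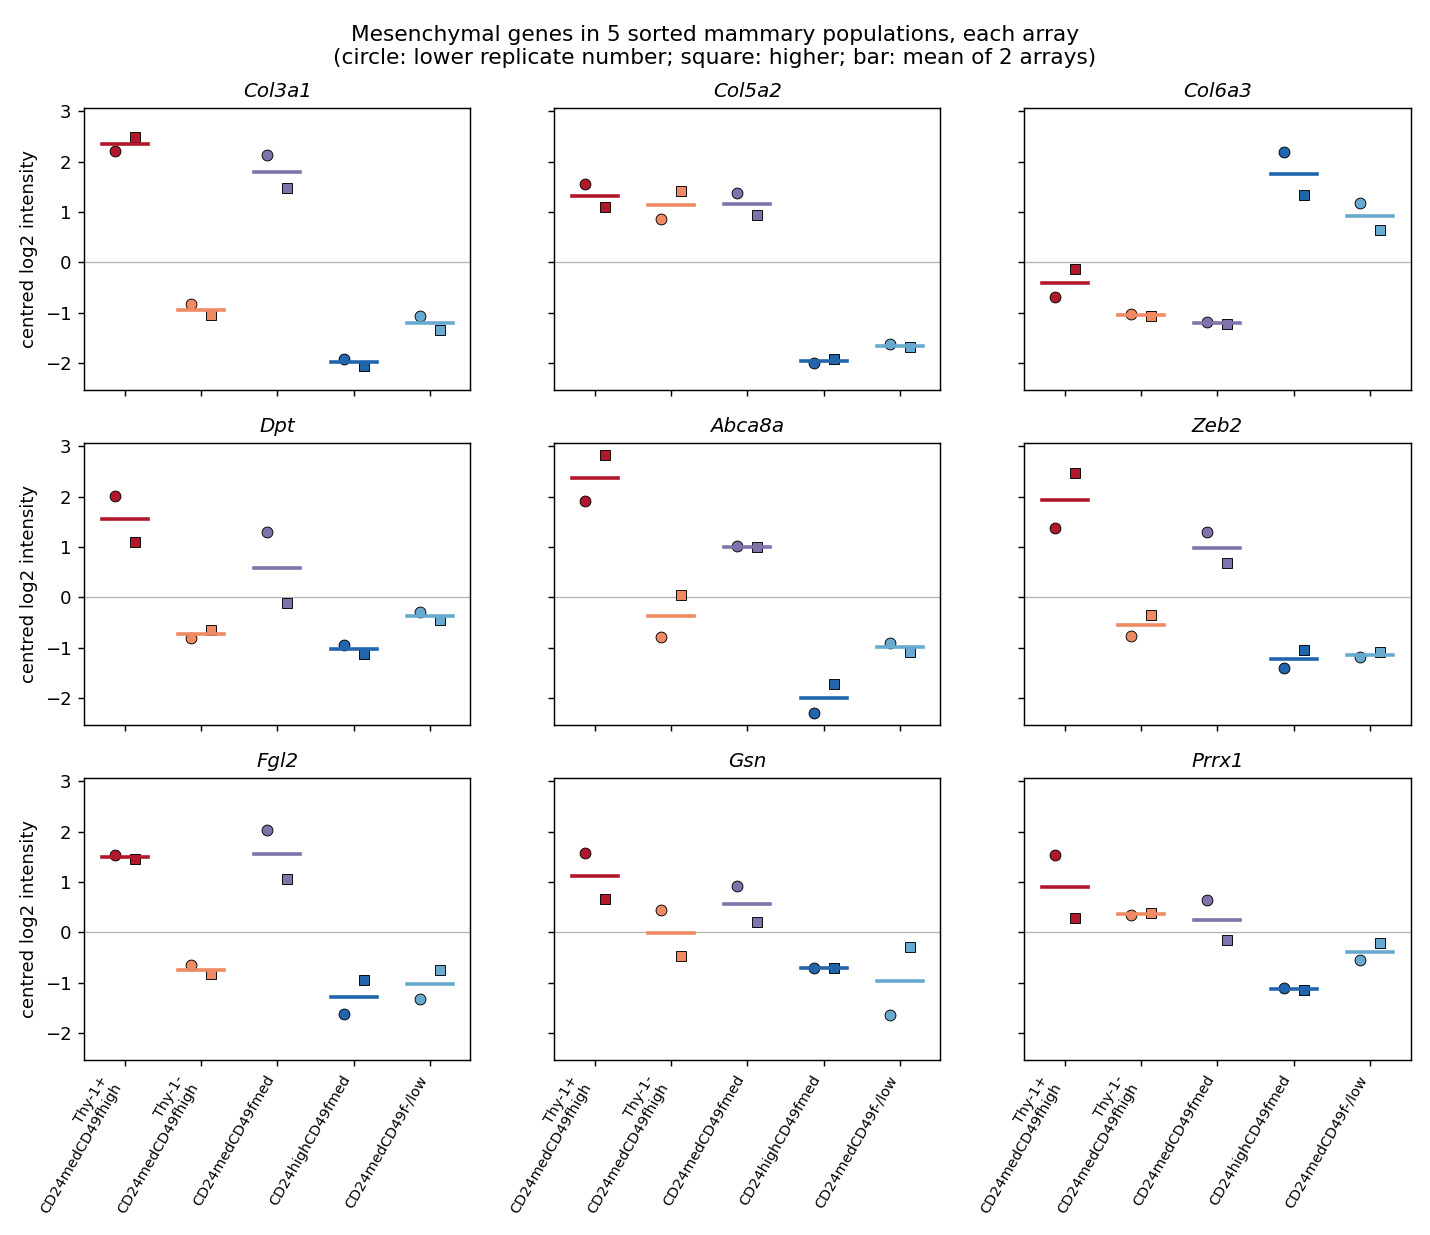
Centred log2 intensity of each of the 9 genes (vertical axis) in the 5 sorted populations (horizontal axis). Points are single arrays and bars are means of 2 arrays. Col3a1, Abca8a, Zeb2 and Fgl2 were above 0 in all Thy-1+CD24medCD49fhigh and CD24medCD49fmed arrays and at or below 0.04 in all Thy-1-CD24medCD49fhigh and luminal arrays, Col5a2 was above 0 in all 6 basal arrays, and Col6a3 was above 0 in the 4 luminal arrays alone.

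Col3a1 had the widest split within the CD24medCD49fhigh gate. It had 2.21 and 2.48 in Thy-1+CD24medCD49fhigh cells, -0.84 and -1.05 in Thy-1-CD24medCD49fhigh cells, 2.14 and 1.47 in CD24medCD49fmed cells, -1.93 and -2.05 in CD24highCD49fmed cells and -1.08 and -1.35 in CD24medCD49f-/low cells. Its Thy-1- arrays lay just above the luminal arrays and 3.05 below the lower Thy-1+ array. The mean was 3.29 higher in Thy-1+ than in Thy-1- cells, which is 9.78-fold and the highest such difference of the 2932 features. With any 1 of these 4 arrays left out it stayed between 3.15 and 3.43.

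Col5a2, the neighbour of Col3a1 on chromosome 1, did not share this split. It had 1.55 and 1.10 in Thy-1+CD24medCD49fhigh cells, 0.86 and 1.41 in Thy-1-CD24medCD49fhigh cells, 1.38 and 0.95 in CD24medCD49fmed cells, -2.002 and -1.92 in CD24highCD49fmed cells and -1.63 and -1.68 in CD24medCD49f-/low cells. The 3 basal populations overlapped and all 6 basal arrays lay far above the 4 luminal arrays. The difference between Thy-1+ and Thy-1- cells was 0.19, and it was between -0.09 and 0.47 with 1 array left out, so that it had no settled direction. Both probe sets of the gene showed this overlap.

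Col6a3 ran the other way round across the lineages. It had -0.69 and -0.14 in Thy-1+CD24medCD49fhigh cells, -1.03 and -1.06 in Thy-1-CD24medCD49fhigh cells, -1.19 and -1.23 in CD24medCD49fmed cells, 2.19 and 1.33 in CD24highCD49fmed cells and 1.17 and 0.65 in CD24medCD49f-/low cells. All basal arrays lay below all luminal arrays, and within the basal cells both Thy-1+ arrays were the highest, by 0.34 over the Thy-1- arrays. That narrow gap was lost with array medians set to 0. The order of the means, CD24highCD49fmed, CD24medCD49f-/low, Thy-1+, Thy-1- and CD24medCD49fmed, had no overlap between neighbours. The mean was 0.63 higher in Thy-1+ than in Thy-1- cells (1.55-fold), between 0.36 and 0.90 with 1 array left out and lowest without Thy-1+ replicate 2. Col6a1, which encodes another chain of collagen VI and was picked for naming after its values were seen, had 1.09 and 0.41 in Thy-1+CD24medCD49fhigh cells and -0.36 and -0.32 in Thy-1-CD24medCD49fhigh cells. It had 0.64 and 0.42 in CD24medCD49fmed cells, -0.60 and -0.92 in CD24highCD49fmed cells and 0.43 and -0.81 in CD24medCD49f-/low cells. Unlike Col6a3, its mean was higher in CD24medCD49fmed than in luminal cells, by 1.00 (limma adjusted p 0.0621, not called).

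Dpt shared the split of Col3a1 between Thy-1+ and Thy-1- cells, with a wider spread between the arrays of the Thy-1+ and of the CD24medCD49fmed cells. It had 2.01 and 1.10 in Thy-1+CD24medCD49fhigh cells, -0.80 and -0.65 in Thy-1-CD24medCD49fhigh cells, 1.29 and -0.11 in CD24medCD49fmed cells, -0.94 and -1.13 in CD24highCD49fmed cells and -0.30 and -0.45 in CD24medCD49f-/low cells. The Thy-1- arrays lay below both CD24medCD49f-/low arrays, and the CD24medCD49fmed arrays were farther apart than those of any other population. The mean was 2.28 higher in Thy-1+ than in Thy-1- cells (4.86-fold, the 9th of the features), and between 1.83 and 2.74 with 1 array left out.

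Abca8a and Zeb2 were the genes most alike among the 9. Abca8a had 1.92 and 2.82 in Thy-1+CD24medCD49fhigh cells, -0.79 and 0.04 in Thy-1-CD24medCD49fhigh cells, 1.02 and 0.99 in CD24medCD49fmed cells, -2.29 and -1.72 in CD24highCD49fmed cells and -0.90 and -1.09 in CD24medCD49f-/low cells. The 5 populations did not overlap, with CD24medCD49fmed cells between the Thy-1+ and Thy-1- cells and the luminal cells lowest. The mean was 2.74 higher in Thy-1+ than in Thy-1- cells (6.70-fold, the 3rd of the features), and between 2.29 and 3.19 with 1 array left out. Zeb2 had 1.39 and 2.47 in Thy-1+CD24medCD49fhigh cells, -0.76 and -0.34 in Thy-1-CD24medCD49fhigh cells, 1.29 and 0.68 in CD24medCD49fmed cells, -1.40 and -1.05 in CD24highCD49fmed cells and -1.19 and -1.09 in CD24medCD49f-/low cells. Its order was the same, except that the 2 luminal populations overlapped. The mean was 2.48 higher in Thy-1+ than in Thy-1- cells (5.58-fold, the 5th of the features), and between 1.94 and 3.02 with 1 array left out. Both genes were higher in Thy-1+ replicate 2 than in replicate 1.

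Prrx1, the other transcription factor, differed from Zeb2. It had 1.53 and 0.29 in Thy-1+CD24medCD49fhigh cells, 0.35 and 0.39 in Thy-1-CD24medCD49fhigh cells, 0.64 and -0.15 in CD24medCD49fmed cells, -1.10 and -1.15 in CD24highCD49fmed cells and -0.56 and -0.22 in CD24medCD49f-/low cells. Only Thy-1+ replicate 1 stood out, and replicate 2 lay below both Thy-1- arrays. The mean was 0.54 higher in Thy-1+ than in Thy-1- cells, which became -0.08 when Thy-1+ replicate 1 was left out and reached 1.16 when its partner was. The 2 probe sets gave 1.64 and 1.42 in that replicate, against 0.16 and 0.42 in Thy-1+ replicate 2, so both carried the same gap.

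Fgl2 was the one gene of the 9 with its highest mean in CD24medCD49fmed cells. It had 1.54 and 1.46 in Thy-1+CD24medCD49fhigh cells, -0.65 and -0.83 in Thy-1-CD24medCD49fhigh cells, 2.04 and 1.07 in CD24medCD49fmed cells, -1.63 and -0.94 in CD24highCD49fmed cells and -1.32 and -0.74 in CD24medCD49f-/low cells. The Thy-1+ and CD24medCD49fmed arrays overlapped, as did the Thy-1- and luminal arrays. The mean was 2.24 higher in Thy-1+ than in Thy-1- cells (4.72-fold, the 10th of the features), and the difference was between 2.15 and 2.33 with 1 array left out.

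Gsn had smaller steps and wider spread. It had 1.58 and 0.66 in Thy-1+CD24medCD49fhigh cells, 0.44 and -0.46 in Thy-1-CD24medCD49fhigh cells, 0.92 and 0.20 in CD24medCD49fmed cells, -0.71 and -0.70 in CD24highCD49fmed cells and -1.65 and -0.28 in CD24medCD49f-/low cells. Both Thy-1+ arrays lay above both Thy-1- arrays by 0.21, less than the distance between the arrays of either population, and the CD24medCD49fmed arrays overlapped both. The mean was 1.13 higher in Thy-1+ than in Thy-1- cells (2.19-fold, the 78th of the features), but it was 0.67 when Thy-1+ replicate 1 was left out, 0.68 when replicate 2 of the Thy-1- cells was, and at most 1.59 with 1 array left out.

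Set side by side, all 9 genes had a higher mean in Thy-1+CD24medCD49fhigh than in Thy-1-CD24medCD49fhigh cells, with a median difference of 2.24 against 0.15 over all features. For 7 of the 9 both Thy-1+ arrays lay above both Thy-1- arrays, as they did for 17.3% of all features (5.22% had both below), and since the genes had been chosen on this contrast nothing is read from that count. With array medians set to 0 the count was 5, without Col6a3 and Gsn, whose gaps of 0.34 and 0.21 were the narrowest of the 7. The genes split into 5 with differences of 2.24 to 3.29 (Col3a1, Abca8a, Zeb2, Dpt and Fgl2), then Gsn, and 3 at or under 0.63 (Col6a3, Prrx1 and Col5a2). Col5a2, Dpt, Fgl2, Gsn and Prrx1 were higher in Thy-1+ replicate 1 than in replicate 2, while Col3a1, Col6a3, Abca8a and Zeb2 were higher in Thy-1+ replicate 2. All 9 were higher in CD24medCD49fmed replicate 2 than in replicate 3, though Abca8a (1.02 and 0.99) and Col6a3 (-1.19 and -1.23) barely so. The median difference over the 9 genes fell short of 2.24 when a Thy-1+ array was left out, at 1.83 with replicate 2 alone and 1.94 with replicate 1 alone.

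The CD24medCD49fmed cells shared part of the pattern. Relative to Thy-1- cells, they had higher values of Col3a1 by 2.75, Fgl2 by 2.30, Zeb2 by 1.54, Abca8a by 1.38 and Dpt by 1.32, and for these 5 genes both CD24medCD49fmed arrays lay above both Thy-1- arrays, as for 20.5% of all features. Col6a3, at -0.16, was the 1 gene whose CD24medCD49fmed arrays both lay below, as for 9.04% of all features, and Gsn, Col5a2 and Prrx1 overlapped at 0.57, 0.03 and -0.12. Thy-1+ minus CD24medCD49fmed differences were smaller, from -0.06 for Fgl2 to 1.36 for Abca8a with a median of 0.66 against 0.05 over all features. Arrays did not overlap for 4 genes, Abca8a, Zeb2, Col6a3 and Col3a1, all higher in Thy-1+ cells, as were 13.7% of all features, while 8.32% were lower. These 3 comparisons share arrays and rest on 2 arrays a group, and they are descriptions without a test.

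**Figure D2:**
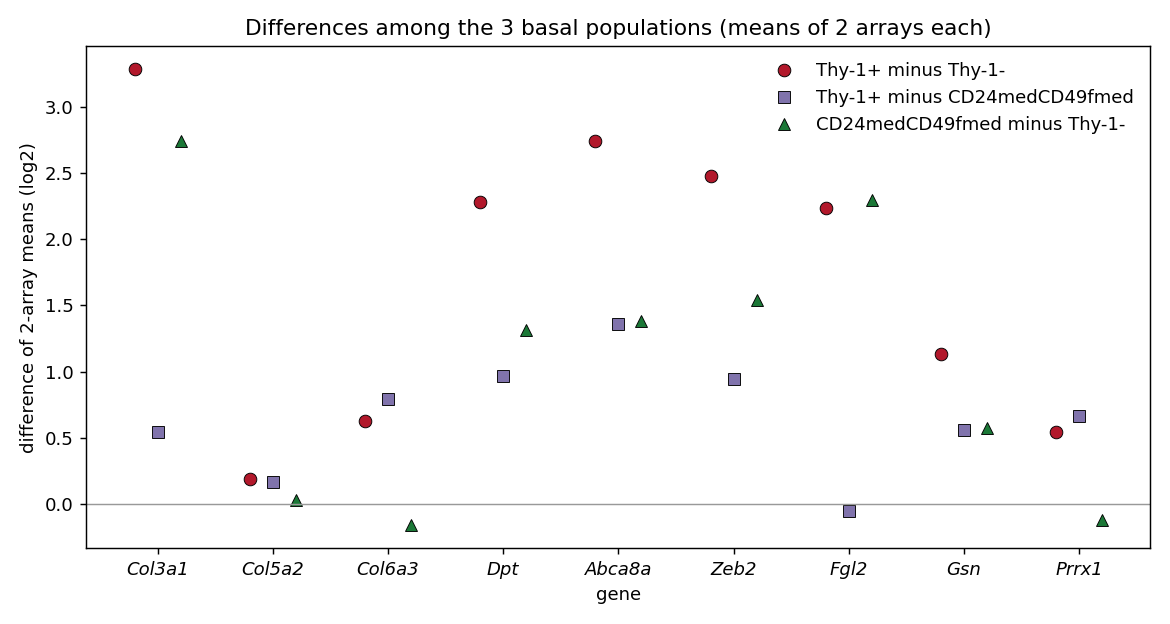
Differences between the means of 2 arrays (log2, vertical axis) for each gene (horizontal axis) among the 3 basal populations. Circles are Thy-1+ minus Thy-1-, squares Thy-1+ minus CD24medCD49fmed and triangles CD24medCD49fmed minus Thy-1-. Col3a1 and Fgl2 had triangles at 2.75 and 2.30, near their circles at 3.29 and 2.24, whereas the 3 marks of Col5a2 lay between 0.03 and 0.19.

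The CD24medCD49fmed and luminal arrays were not part of the contrast on which the genes were chosen, and they were compared with limma across all 2932 features. In CD24medCD49fmed cells, 7 of the 9 genes rose relative to the mean of the luminal populations, 1 fell and 1 did not pass the threshold, at a Benjamini-Hochberg adjusted p under 0.05. Markers of Schwann cells, fibroblasts and pericytes were called in the same comparison, with the values given below, and their part in the result was not tested. Over all features 61.5% were called, 29.7% higher and 31.8% lower, so that most of the table differed between these cells. The median of the 9 differences was 2.17, against -0.14 over all features.

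The collagens gave the largest differences in both directions. Col3a1 was 3.40 ± 0.43 (SE) higher in CD24medCD49fmed than in luminal cells, which is 10.6-fold, with a limma adjusted p of 4.13e-06. Col5a2 was 2.97 ± 0.43 higher (7.83-fold, limma adjusted p 1.88e-05). Col6a3 differed by -2.55 ± 0.44, a 5.84-fold lower value in CD24medCD49fmed cells (limma adjusted p 0.000119). The arrays of the 2 sides did not overlap for any of the 9 genes, 8 above and 1 below, as for 31.4% and 32.7% of all features. For Prrx1 this rests on the mean of its 2 probe sets. In 1 of them CD24medCD49fmed replicate 3, at -0.33, lay below CD24medCD49f-/low replicate 2, at 0.13. All 9 had an unadjusted p under 0.05, as did 67.2% of all features.

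Fgl2, at 2.71 ± 0.45, Abca8a, at 2.51 ± 0.45, and Zeb2, at 2.17 ± 0.45, also rose, with limma adjusted p-values of 8.25e-05, 0.000181 and 0.00068. Gsn, at 1.40 ± 0.49 (limma adjusted p 0.0207), and Dpt, at 1.29 ± 0.47 (limma adjusted p 0.0244), rose less. Prrx1 had a difference of 1.00 ± 0.46, a 95% interval of 0.04 to 1.96 and a limma adjusted p of 0.0645, and was not called. The calls of Gsn and Dpt were lost without CD24medCD49fmed replicate 2, where the differences were 1.04 (limma adjusted p 0.194) and 0.59 (limma adjusted p 0.42). That array had the lowest median of the luminal marker list, -1.89 against -0.39 in replicate 3, and the part of this in the result was not tested.

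**Figure D3:**
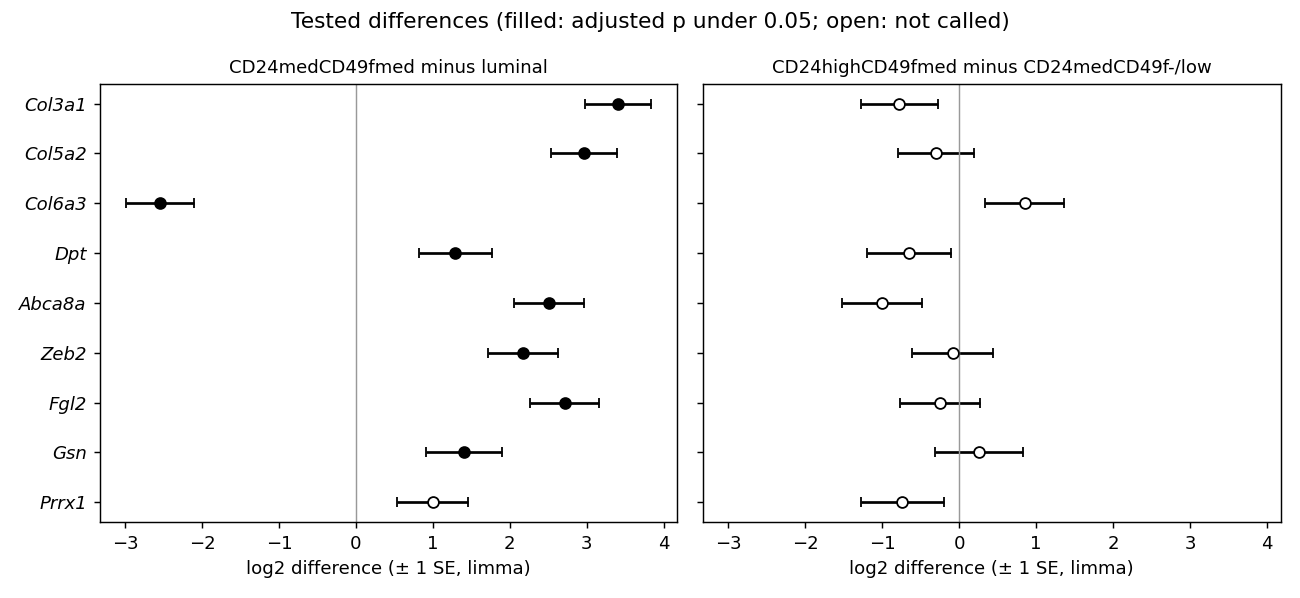
Tested log2 differences with 1 SE from limma for the 9 genes, as CD24medCD49fmed minus luminal (left) and CD24highCD49fmed minus CD24medCD49f-/low (right). Filled points passed an adjusted p of 0.05 and open points did not. On the left 8 points are filled, from -2.55 for Col6a3 to 3.40 for Col3a1, and on the right none is.

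Between the luminal populations, CD24highCD49fmed minus CD24medCD49f-/low, limma called none of the 9 genes at an adjusted p under 0.05, and none had an unadjusted p under 0.05. Over all features 0.205% were called (0.0682% higher and 0.136% lower), 6 in number, and 15.4% (451) had an unadjusted p under 0.05. Abca8a had the difference farthest from 0, -1.01 ± 0.52 with a 95% interval of -2.09 to 0.08 (limma adjusted p 0.354), followed by Col6a3 at 0.85 ± 0.51 with one of -0.21 to 1.92 (limma adjusted p 0.404). Col3a1 had -0.78 ± 0.50 with an interval of -1.81 to 0.25. These intervals leave room for changes of 2-fold or more, so the test does not show that the luminal populations had like values. Col5a2 (-0.30 ± 0.50), Fgl2 (-0.25 ± 0.52), Gsn (0.26 ± 0.57) and Zeb2 (-0.09 ± 0.52) were nearer to 0, with Prrx1 (-0.74 ± 0.53) and Dpt (-0.66 ± 0.55) between.

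The CD24medCD49fhigh populations were set against the luminal cells as a description. Thy-1+ minus luminal differences ran from -1.75 for Col6a3 to 3.95 for Col3a1 with a median of 2.66, and the arrays did not overlap for 8 genes above (29.4% of all features) and 1 below (30.1%). In Thy-1- cells the median was 0.66. There 5 genes lay above the luminal arrays without overlap (27.4% of all features). Their differences of means were 2.94 for Col5a2, 1.12 each for Prrx1 and Abca8a, 0.66 for Col3a1 and 0.63 for Zeb2. The gaps between the arrays were smaller, 2.49 for Col5a2, 0.57 for Prrx1, 0.11 for Abca8a, 0.03 for Col3a1 and 0.28 for Zeb2. Col6a3, at -2.38, lay below (30.5%). Dpt, at -0.02, Fgl2, at 0.42, and Gsn, at 0.83, overlapped. These values share the luminal arrays with the tested comparison. Thus 5 genes, Col3a1, Col5a2, Abca8a, Zeb2 and Prrx1, had all 6 basal arrays above all 4 luminal arrays, as did 25.2% of all features, and Col6a3 had all 6 below, as did 23.8%. For Prrx1 this held for the mean of its 2 probe sets but not for 1 of them alone.

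Lists of related genes were then counted in the same comparisons. Of 31 collagen chains and collagen-processing enzymes, 15 could be analysed, and 11 were higher and 2 lower in CD24medCD49fmed than in luminal cells by limma, with a median difference of 2.03, where 29.7% of all features were called higher and 31.8% lower. Col14a1, a fibril-associated collagen, had the largest difference, 3.99 ± 0.44 (limma adjusted p 1.02e-06), and Loxl3, a collagen cross-linking enzyme, had 2.93 ± 0.43 (limma adjusted p 2.17e-05). Between Thy-1+ and Thy-1- cells the same 15 genes had a median difference of 0.19, and both Thy-1+ arrays lay above both Thy-1- arrays for 5 (17.3% of all features), which were Col3a1, Col6a3, Col1a1, Col1a2 and Col6a1. Col1a2, a chain of collagen I, had 1.53 and 1.75 in Thy-1+CD24medCD49fhigh cells and -0.23 and -0.15 in Thy-1-CD24medCD49fhigh cells. Col14a1 had 2.00 and 0.89 in Thy-1+CD24medCD49fhigh cells and 1.49 and 1.64 in Thy-1-CD24medCD49fhigh cells. The other 10 genes of the list overlapped between these populations, as Col5a2 did.

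The proteoglycans and fibril-associated matrix genes, 12 of 28 analysed, behaved likewise. In CD24medCD49fmed cells 11 were called higher than in luminal cells and none lower, with a median of 2.65, beside 29.7% and 31.8% of all features. The largest were Vcan (versican) at 4.78 ± 0.46, Postn (periostin) at 4.31 ± 0.49, Fbln2 (fibulin 2) at 4.17 ± 0.46 and Fmod (fibromodulin) at 3.00 ± 0.46, with limma adjusted p-values of 3.8e-07, 1.28e-06, 1.02e-06 and 3.64e-05. Between Thy-1+ and Thy-1- cells their median difference was 0.02. Dpt and Bgn (biglycan, with a difference of means of 0.33) lay above without overlap, beside 17.3% of all features. Fbn2 (fibrillin 2, at -0.77) lay below, beside 5.22%. Dpt had the largest Thy-1+ minus Thy-1- difference of the 12, but it had been chosen on this contrast, so nothing is read from its place.

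Of 23 mesenchymal transcription regulators, 7 could be analysed, 5 called higher and 1 lower in CD24medCD49fmed than in luminal cells, beside 29.7% and 31.8% of all features. Snai2, a repressor of E-cadherin like Zeb2, was 3.08 ± 0.44 higher (limma adjusted p 1.47e-05), Osr1 was 2.42 ± 0.47 higher (limma adjusted p 0.000325), and Foxc1 differed by -1.93 ± 0.44 (limma adjusted p 0.00136). Zeb2 was the 1 regulator of the 7 whose Thy-1+ arrays both lay above both Thy-1- arrays, beside 17.3% of all features. It had been chosen on this contrast, so nothing is read from that count. Snai2 had 1.52 and 0.80 in Thy-1+CD24medCD49fhigh cells and 1.18 and 1.38 in Thy-1-CD24medCD49fhigh cells.

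The families of the remaining genes were small. Of 5 transporters of the Abca8a group, Abca8a alone could be analysed. Of 11 gelsolin family and actin severing genes, 5 could be. Gsn and Cfl1 (cofilin 1, 1.25 ± 0.48, limma adjusted p 0.0309) were higher in CD24medCD49fmed than in luminal cells and none was lower, beside 29.7% and 31.8% of all features. For 3 of the 5, Gsn, Capg and Cfl1, both Thy-1+ arrays lay above both Thy-1- arrays (17.3% of all features). Of 15 genes for fibrinogen-domain proteins, 5 could be analysed. Fgl2 was higher, whereas Fgg at -3.14 ± 0.48, Angpt1 at -2.20 ± 0.43 and Fgb at -2.16 ± 0.75 were lower (limma adjusted p 3.16e-05, 0.000367 and 0.0192), again beside 29.7% and 31.8%. For 3 of the 5, Fgl2, Fgg and Angpt1, both Thy-1+ arrays lay above both Thy-1- arrays (again beside 17.3%). No gene of these 6 lists was called between the luminal populations.

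Markers of other cell types moved with the 9 genes in part. Of 9 pericyte markers 7 could be analysed, and for 6 of these, Rgs5, Pdgfrb, Notch3, Kcnj8, Abcc9 and Anpep, both Thy-1+ arrays lay above both Thy-1- arrays without overlap (17.3% of all features), by 0.58 for Anpep to 1.24 for Notch3 as differences of means. The list's median by array was 0.73 and 1.04 in Thy-1+CD24medCD49fhigh cells, against -0.05 and -0.40 in Thy-1-CD24medCD49fhigh cells. In CD24medCD49fmed cells it was 0.24 and -0.0037. Of 11 Schwann cell markers 7 could be analysed and 4 lay above without overlap (again beside 17.3%). Their differences of means were 2.39 for Cdh19, 1.12 for Mbp, 1.10 for Mal and 0.71 for Pmp22. The list's median was 0.91 and 0.73 in Thy-1+CD24medCD49fhigh cells, against -0.03 and 0.12 in Thy-1-CD24medCD49fhigh cells. In CD24medCD49fmed cells that median was 0.84 and 0.71.

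Of 13 fibroblast markers 4 could be analysed, Col1a1, Col1a2, Mmp2 and Fbln1. Their median was 1.12 and 1.12 in Thy-1+CD24medCD49fhigh cells, against 0.29 and 0.53 in Thy-1-CD24medCD49fhigh cells. Of these, Col1a1 and Col1a2 lay above without overlap (beside 17.3% of all features) and Mmp2 and Fbln1 overlapped, while Pdgfra, Dcn and Lum were not analysed here. Fabp4, 1 of the 2 adipocyte markers analysed out of 9, lay above with a difference of means of 1.13, while the other, Lep, overlapped at -0.57. Of 10 leukocyte markers only Lcp1 and of 6 erythroid markers only Hba-a2 could be analysed, both overlapping between Thy-1+ and Thy-1- cells, and none of 10 endothelial markers could be. In the tested comparison of CD24medCD49fmed with luminal cells, markers of other cell types were also called higher by limma, beside 29.7% of all features. These were 5 of the 7 Schwann cell markers with 1 lower (Mbp at 4.08 ± 0.44 and Pmp22 at 3.88 ± 0.46 the largest), 3 of the 4 fibroblast markers (Mmp2 at 4.28 ± 0.45 the largest), 3 of the 7 pericyte markers (Pdgfrb at 2.14 ± 0.49 the largest), Fabp4 at 2.63 ± 0.53 and Hba-a2 at 1.99 ± 0.58, while Lcp1 was called lower at -1.87 ± 0.51. Because the values are centred, it cannot be read which of these markers were near background. The 9 basal epithelial markers overlapped between Thy-1+ and Thy-1- cells with a median difference of 0.08, and all 9 were higher in CD24medCD49fmed than in luminal cells, while 9 of the 11 luminal markers were lower. The part of other cell types in the values of the 9 genes was not tested.

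**Figure D4:**
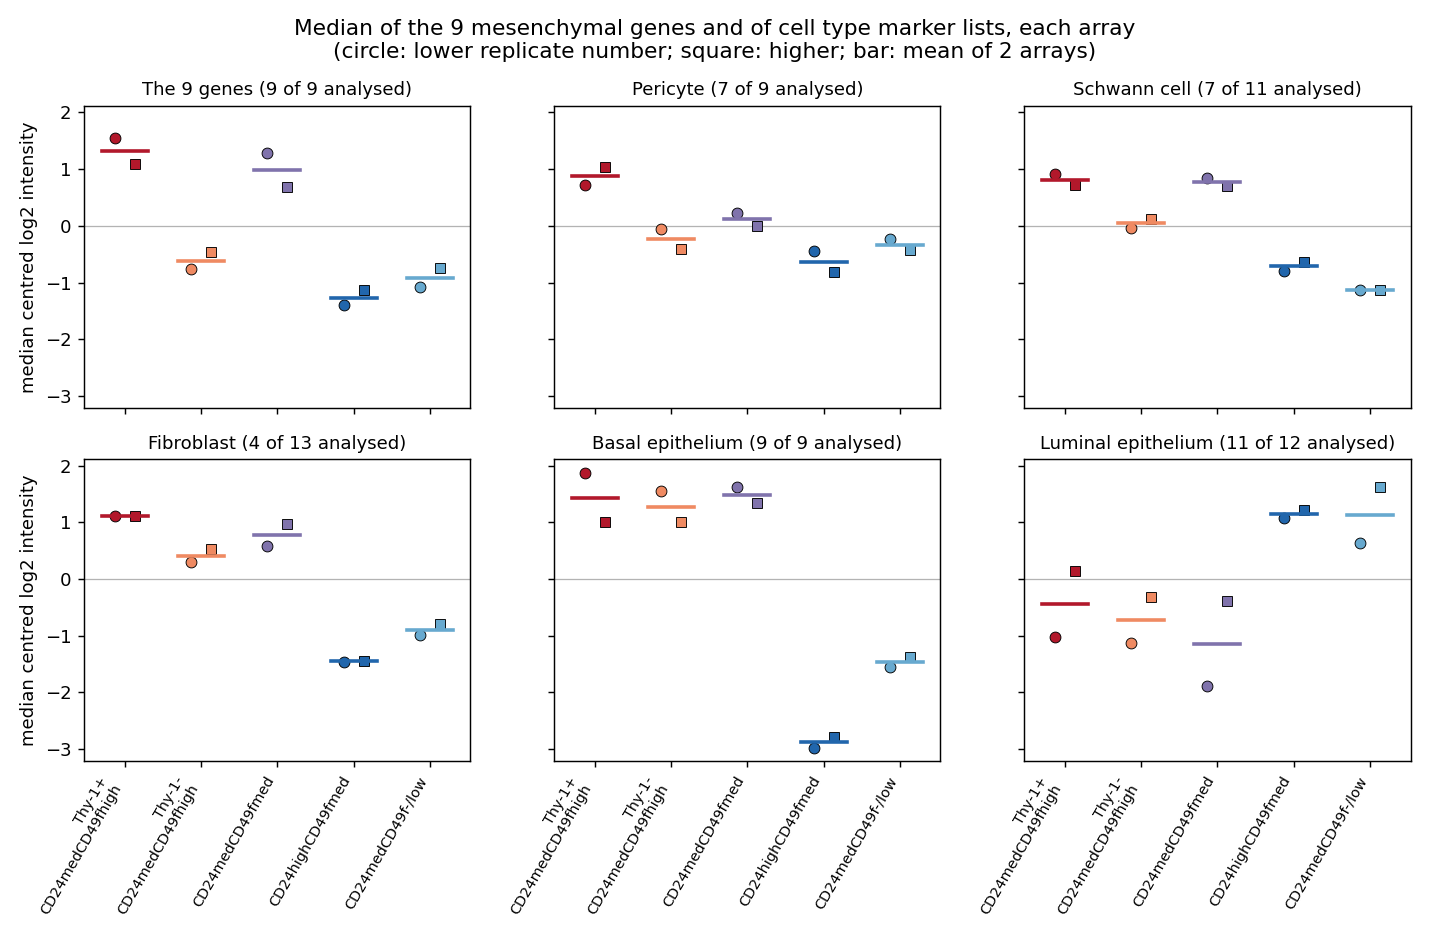
Median centred log2 intensity by array (vertical axis) of the 9 genes and of 5 marker lists in the 5 sorted populations (horizontal axis). Points are single arrays and bars are means of 2 arrays. The pericyte, Schwann cell and fibroblast medians, like that of the 9 genes, were higher in both Thy-1+ arrays than in both Thy-1- arrays. The basal epithelial medians of these populations overlapped.

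Likeness to each of the 9 genes was measured as the root mean square difference over the 10 arrays, in log2 units, among the 2559 other named genes. The nearest genes to Col3a1 were Abca8a (0.565), Fgl2 (0.592) and Zeb2 (0.623), all of the 9. The 10 arrays include the Thy-1+ and Thy-1- arrays on which the 9 genes were chosen, so nothing is read from nearness among the 9. Abca8a and Zeb2 were 0.452 apart, and Zeb2 was nearest to the potassium channel gene Kcna2 (0.346) and to Col1a2 (0.363). Fgl2 was nearest to another potassium channel gene, Kcna1 (0.457), and then to Zeb2 (0.468). Col5a2 was far from Col3a1, at 1.121, and nearest to Htra1, a secreted serine protease (0.187), and Acta2, smooth muscle actin (0.204).

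The remaining genes had neighbours outside the 9. Dpt was nearest to Capns2 (0.358) and Tgfbi (0.372), Gsn to Rras (0.302) and Hspb1 (0.309), and Prrx1 to Zcchc18 (0.198) and Ptgs2 (0.224). Col6a3 was nearest to Plscr2 (0.258), Cyp24a1 (0.264) and the vessel ligand Angpt1 (0.294), and it was farther from each of the other 8 genes, by 1.854 to 2.668, than any of those were from each other. The mean profile of the 9 genes was nearest to Rarres2, which encodes chemerin (0.173), then to Col1a2 (0.223), S100a4 (0.251), Avpr1a (0.317) and Kcna1 (0.334). These distances say nothing of shared control.

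Of the 9 genes 5, Col3a1, Col5a2, Col6a3, Dpt and Prrx1, lie on chromosome 1, which is 55.6%, whereas 154 of the 2523 named genes with an annotated chromosome (6.10%) do. Col3a1 and Col5a2 are next to each other among protein-coding genes and the other 3 are apart from them. The adjacent genes were the pair with the 3.29 and 0.19 differences between Thy-1+ and Thy-1- cells. Abca8a lies on chromosome 11 between Abca8b and Abca9, neither of which was analysed here, Zeb2 and Gsn lie on chromosome 2 and Fgl2 on chromosome 5.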

How the data were processed

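RNA of 10 sorted samples was labelled in 2 amplification cycles and hybridised. The deposited values are log2 intensities that the authors normalised, filtered on level and on a 4-fold range, and centred per probe set. Their methods state RMA, the submitters' processing notes name RMA and GCRMA, and no version is given. Of 3663 probe sets, 3291 had 1 gene symbol, 75 several and 297 none in the annotation used. Probe sets of a gene were averaged, which gave 2932 features. Col5a2 and Prrx1 had 2 probe sets each.

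All arrays entered 1 linear model (limma 3.58.1, R 4.3.3) with 5 residual degrees of freedom and 16.5 prior ones. Tests were two-sided, with Benjamini-Hochberg adjustment over all features, and the script was tested on simulated data. The 9 genes and all lists were chosen with earlier results of these data known. Besides the 9, the text names from each list at most 4 called genes, by size of difference, the sorting genes and the nearest genes. Other names were chosen after their values were seen. As alternatives, arrays were left out singly, array medians were set to 0, values were quantile normalised, variances were moderated robustly, the replicate number was a block, probe sets were tested alone, a difference of at least 1 was required, or the other populations were dropped. Rank products, which the methods name, was not used here. Array number limits the precision.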

Additional observations from a re-analysis of the deposited data

How the results depend on the processing

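For CD24medCD49fmed minus luminal, limma called 1802 features, and 1130 with the replicate number as a block. With 1 array left out the count was 829 to 2312, lowest without CD24medCD49fmed replicate 2, and 1140 without CD24medCD49fmed replicate 3. It called 8 of the 9 genes, 7 after quantile normalisation, 9 with array medians set to 0 or probe sets tested alone, 8 with the block, and 6 to 9 with 1 array left out. Dpt lost its call after quantile normalisation (1.08, limma adjusted p 0.0506) and without either CD24highCD49fmed array (limma adjusted p 0.053 and 0.062), besides the loss already given. Prrx1 was called with array medians set to 0 (1.05, limma adjusted p 0.045) and by its more variable probe set alone (1.40, limma adjusted p 0.0136). With probe sets tested alone, a gene counted as called if any of its probe sets passed. The other probe set of Prrx1 had 0.33 and -0.33 in CD24medCD49fmed cells, which overlapped its luminal values of -1.26 to 0.13. The difference of Prrx1 was 1.00 without either Thy-1+ array and 1.08 without CD24medCD49f-/low replicate 2.

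For CD24highCD49fmed minus CD24medCD49f-/low, 6 features were called, against 20 with array medians set to 0, 0 after quantile normalisation, 33 with the replicate block, 0 with only the arrays compared, 11 with probe sets alone, and 0 to 295 with 1 array left out (295 without CD24medCD49f-/low replicate 1, 118 without replicate 2, and 0 without any 1 of the CD24highCD49fmed, Thy-1+ or Thy-1- arrays). None of the 9 genes was called in any of these. Uncalled differences changed sign for Gsn (-0.22 with array medians set to 0, and -0.43 to 0.94 with 1 array left out), Zeb2 (-0.26 to 0.0924) and Fgl2 (-0.60 to 0.0930).

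For Thy-1+ minus Thy-1- cells, the median difference of the 9 genes was 1.83 to 2.21 and the number without overlap 7 to 9 with 1 array left out. With array medians set to 0 they were 2.07 and 5, and after quantile normalisation 2.46 and 7, against 2.24 and 7 for the deposited values. Col5a2 (-0.0875 to 0.47) and Prrx1 (-0.0809 to 1.16) changed sign. The causes were not tested. For single genes, 348 values over the alternatives kept their direction and call, or moved by less than the spread between arrays.

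No source says that equal replicate numbers mark a shared animal or day. The deviations of same-numbered arrays from the population means correlated at 0.521 between the luminal populations and 0.300 between Thy-1+ and Thy-1- cells, but at -0.198 to 0.078 for the other 4 pairs of populations, so the numbers were not taken to pair the arrays. Number 3 occurs in CD24medCD49fmed alone, so in the blocked fit only replicate 2 of that population counts. Where a population was left with 1 array, that array was assumed to vary like the others. With 2 arrays a group the SE of the tested differences of the 9 genes was 0.43 to 0.57, and signal over background could not be judged from centred values.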
